A study of Mus musculus with 6 samples.

Results

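Mitochondrial ribosomal protein genes were taken as the rows of the gene table whose symbol starts with Mrpl (large subunit) or Mrps (small subunit) followed by a digit, without pseudogene symbols holding -ps, and whose TPM averaged 1 or more over the 6 libraries (TPM is a transcript share corrected for length). Of 56448 rows, 84 had such a symbol, 6 of them were pseudogenes, and the remaining 78 all passed the threshold. There were 49 genes of the large and 29 of the small subunit. The member nearest the threshold was Mrpl23 at a mean of 9.04 TPM, and no member lay outside it.

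Mitochondria carry their own ribosome, which translates the few messages of the mitochondrial chromosome into core subunits of the respiratory chain and the ATP synthase. Its RNAs come from the mitochondrial chromosome, whereas all of its proteins are encoded in the nucleus, made in the cytosol and imported. The proteins fall into homologs of bacterial ribosomal proteins and proteins found only in mitochondrial ribosomes. The small subunit reads the message and the large subunit joins the amino acids.

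The libraries were made from 4T1, a mouse mammary carcinoma line grown in culture. The series describes a line in which miR-9, a microRNA, was stably knocked down through a lentivirus, beside a control group. It also names a microarray and, for the RNA, tissue, whereas the table holds sequencing values and the labels name cultured cells. There were 3 libraries whose genotype label reads LV2 and 3 whose label reads in9. The labels do not say which is the control or what the constructs hold, and no label says how many clones or separate cultures were used, so the p-values reflect only how these libraries scatter, which may be technical. Differences are given as in9 minus LV2, on the log2(TPM + 1) scale.

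The sequencing depth behind the TPM values is unknown. No pair of libraries was identical, and 20123 to 20538 genes were above 0. On the first principal component in9 replicate 1 lay at -2.70, against 26.1 and 27.8 for the other in9 libraries and -22.2 to -6.98 for LV2. Calls of named genes that changed without in9 replicate 1 are therefore given both ways, as are some values. The carcinoma markers Krt8, Krt18, Epcam, Cdh1 and Krt14 had a summed level of 2069.4 to 2092.5 TPM over LV2 and 1960.7 to 2000.6 TPM over in9. Most of that sum was Krt8 and Krt18. The markers went different ways, at -0.08 (Krt8), -0.08 (Krt18), -0.30 (Epcam), 0.19 (Cdh1) and 0.08 (Krt14). In limma the adjusted p was 0.0633 for Epcam and 0.2005 for Cdh1, and 0.0299 and 0.0421 without in9 replicate 1. Of 6 macrophage and neutrophil markers, Adgre1 and Ly6g were listed at 0 in every library. The sum over the list spanned 27.8 to 28.8 TPM over LV2 and 33.7 to 40.9 TPM over in9, nearly all of it Cd68. Cd68 was higher in every in9 library than in any LV2 library (0.40). Its adjusted p in limma was 0.0745, and 0.0153 without in9 replicate 1. The 6 fibroblast markers summed to 4.74 to 6.76 and 7.95 to 8.43 TPM, with Lum at 0, the 4 endothelial markers to 1.72 to 1.95 and 1.97 to 2.17 TPM, and the 4 T and B cell markers to at most 0.16 TPM, with Cd3d at 0. The part of other cells in the results below was not tested.

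The promoters of the members shared short motifs that the choice of the genes did not use. RefSeq windows of 300 bases (250 before to 50 after the start, build GRCm38.p6) matched 69 of the 78 symbols, with 75 windows in all. Windows were searched on both strands for the core of the element bound by nuclear respiratory factor NRF1 (TGCGCA), the core bound by ETS proteins such as GABPA (CCGGAAG), the YY1 motif (AAGATGG), the NF-Y motif (CCAAT) and the E-box of MYC and USF proteins (CACGTG). Where matches of different motifs overlapped, each was counted. The ETS core was in 34.7% of the members' windows against 8.86% of all 32851 windows, the NRF1 core in 29.3% against 7.76%, and the YY1 motif in 17.3% against 6.34%. The NF-Y motif (40.0% against 37.4%) and the E-box (9.33% against 7.15%) were at shares close to those of all windows. At least 1 of the 5 motifs was in 78.7% of the members' windows and in 53.9% of all windows. All windows include those of genes not tested here. Counted per gene, 1769 tested protein-coding genes had the ETS core and 7052 did not, against 25 and 44 members. The counts were 1357 and 7464 against 21 and 48 for the NRF1 core, and 678 and 8143 against 13 and 56 for YY1. For the E-box they were 931 and 7890 against 5 and 64. Beside these genes the gap in share was narrower for the ETS and NRF1 cores, and the E-box was less frequent in members. The motifs are matches of letters, not measured binding.

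**Figure D1:**
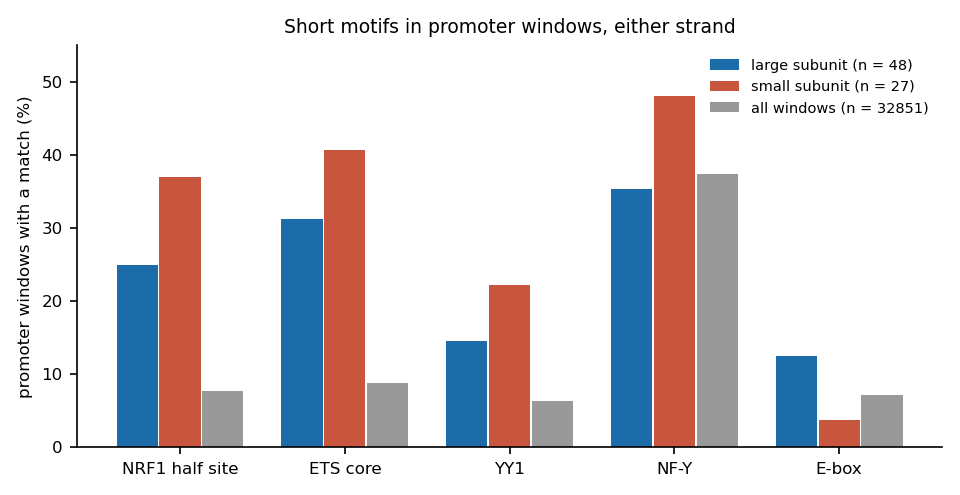
Share of promoter windows (%, vertical axis) with a match to each of 5 motifs (horizontal axis). Windows are those of large subunit genes (n = 48), small subunit genes (n = 27) and all genes, tested here or not (n = 32851). The ETS core reached 31.2% and 40.7% and the NRF1 core 25% and 37.0% in large and small subunit windows, against 8.86% and 7.76% of all windows.

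Windows of 4 members described below are shown, with every motif match in capitals. Mrps18a (chr17:46110754-46111053, plus strand) holds 4 of the 5 motifs. Mrpl37 (chr4:107066817-107067116, minus strand) had the smallest p of all members. Mrps11 (chr7:78782881-78783180, plus strand) had the most negative difference and shares its start region with Mrpl46. Mrpl10 (chr11:97041332-97041631, plus strand) is the 1 member whose in9 libraries all lay above LV2.
Mrps18a: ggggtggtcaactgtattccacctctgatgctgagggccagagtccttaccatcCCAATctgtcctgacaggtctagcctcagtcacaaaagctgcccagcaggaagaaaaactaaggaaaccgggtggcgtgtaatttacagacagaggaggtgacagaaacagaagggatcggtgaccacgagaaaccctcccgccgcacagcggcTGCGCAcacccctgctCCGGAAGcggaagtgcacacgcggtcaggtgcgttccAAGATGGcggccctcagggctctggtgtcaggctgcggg
Mrpl37: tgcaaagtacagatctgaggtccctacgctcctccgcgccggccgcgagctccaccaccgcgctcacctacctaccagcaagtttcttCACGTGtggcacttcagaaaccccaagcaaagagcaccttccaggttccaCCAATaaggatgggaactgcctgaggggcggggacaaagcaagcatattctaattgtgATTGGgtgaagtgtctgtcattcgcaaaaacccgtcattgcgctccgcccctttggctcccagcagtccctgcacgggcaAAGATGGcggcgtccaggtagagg
Mrps11: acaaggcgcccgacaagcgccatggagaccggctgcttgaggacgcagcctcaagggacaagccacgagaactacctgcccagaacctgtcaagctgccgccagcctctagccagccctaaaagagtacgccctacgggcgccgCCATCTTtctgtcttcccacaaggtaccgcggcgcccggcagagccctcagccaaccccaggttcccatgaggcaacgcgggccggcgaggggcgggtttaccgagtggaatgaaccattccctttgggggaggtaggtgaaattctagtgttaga
Mrpl10: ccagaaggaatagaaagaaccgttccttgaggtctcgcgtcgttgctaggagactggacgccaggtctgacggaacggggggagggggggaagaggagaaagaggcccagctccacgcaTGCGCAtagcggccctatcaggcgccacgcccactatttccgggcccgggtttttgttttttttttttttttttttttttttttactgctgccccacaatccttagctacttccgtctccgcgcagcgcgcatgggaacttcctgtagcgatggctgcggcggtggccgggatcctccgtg

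Most mitochondrial ribosomal protein genes had a slightly negative difference between in9 and LV2, and no single member passed the test over all genes. Of 78 members 64 had a negative log2 fold change, 40 of 49 in the large and 24 of 29 in the small subunit, whereas 36.3% of the 13406 genes tested did. The median over members was -0.09, a ratio of 0.941, with a range of -0.39 to 0.20, against 0.06 over all tested genes. After trimmed-mean scaling between libraries 74 of 78 were negative, with a median of -0.15, against 50.3% and 0.00 over all tested genes.

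With limma and Benjamini-Hochberg adjustment over all genes, 0 members were lower and 0 higher at an adjusted p under 0.05, where the background was 0.194% lower and 0.821% higher. At an unadjusted p under 0.05, 20 members were lower and 1 higher, against a background of 5.86% and 13.6%. In 19 members every in9 library lay below every LV2 library (11 large and 8 small), and in Mrpl10 every in9 library lay above, against 8.08% and 17.4% of all tested genes. In bulk libraries, fewer cells with a message and less of it per cell cannot be told apart.

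The calls depended on in9 replicate 1. In that library 28 of 78 members were below every LV2 library, 29 within the LV2 range and 21 above it. In in9 replicates 2 and 3, 52 and 51 members were below every LV2 library. Of all tested genes 28.6%, 21.7% and 21.1% were below every LV2 library in in9 replicates 1, 2 and 3. Without in9 replicate 1, limma called 18 members lower (12 large, 6 small) and 0 higher, against 3.68% of all genes called lower and 6.77% called higher. With libraries weighted by limma 15 members were lower and 0 higher, against 3.9% and 8.7%, and 13 of these were among the 18. Without any other single library 0 members were called, and of the other alternatives a higher minimum TPM gave 1 member, Mrpl37, an adjusted p under 0.05. The values quoted below without in9 replicate 1 or with library weights are therefore among the smallest that each member reached.

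**Figure D2:**
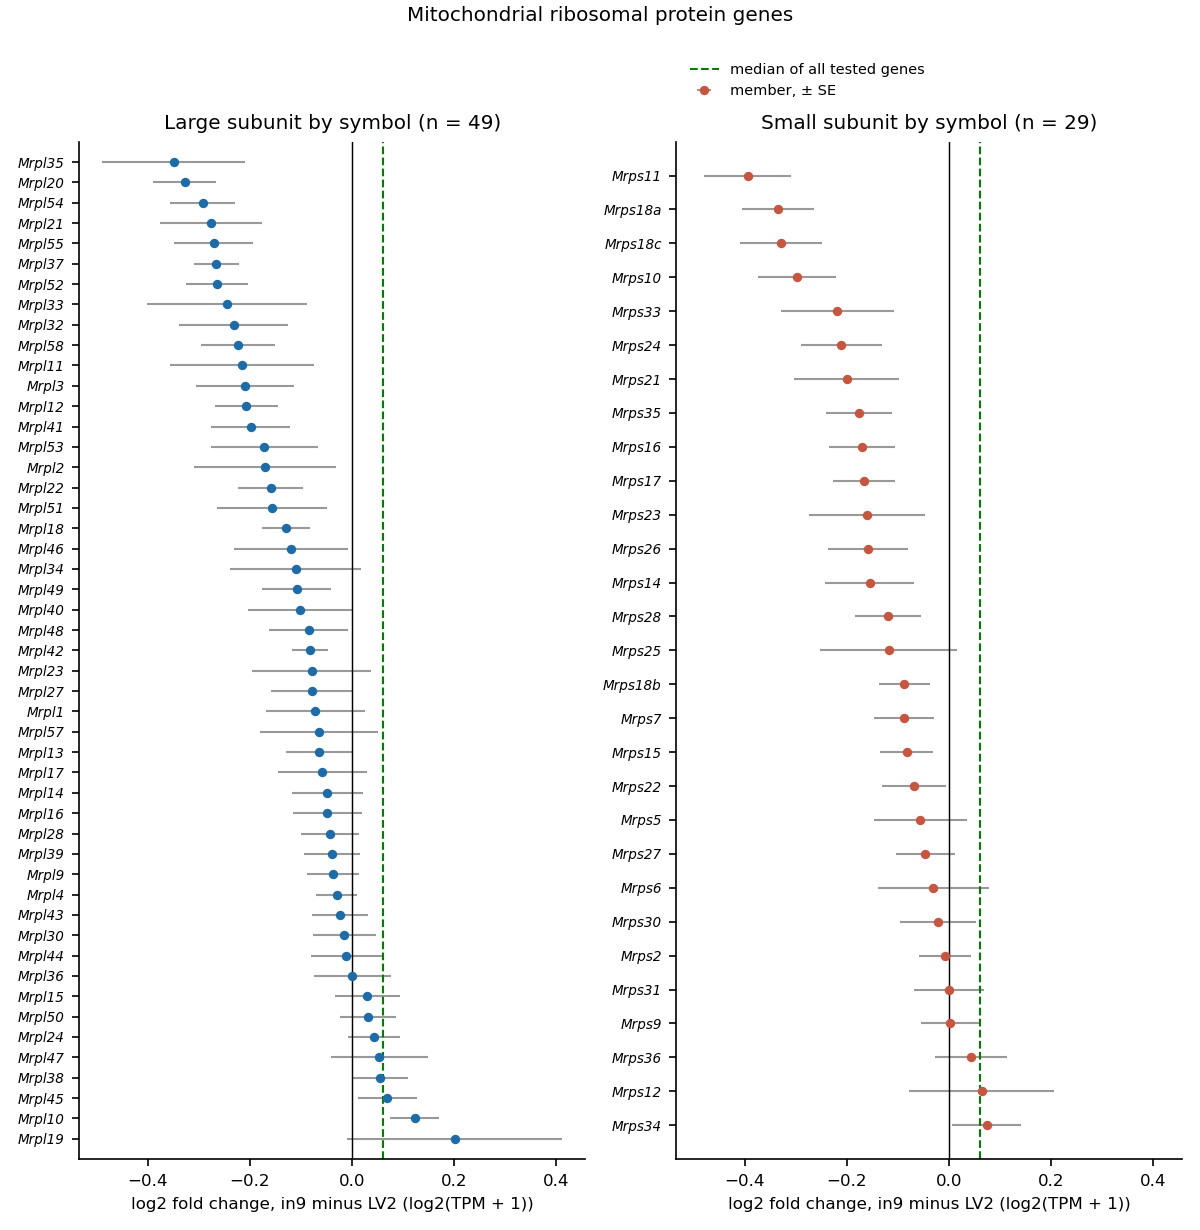
Log2 fold change (in9 minus LV2, horizontal axis) with its standard error for each large subunit gene (left, n = 49) and small subunit gene (right, n = 29), ordered by value. Of the 78 points 64 lie left of 0, and the dashed line marks the median of all tested genes at 0.06.

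In the large subunit the member with the smallest p was Mrpl37, a protein found only in mitochondrial ribosomes, which is named because of its values. It was at 53.35, 52.50 and 54.17 TPM in LV2 and 44.46, 44.14 and 44.00 TPM in in9. The groups did not overlap, and in9 replicate 1 lay with the other in9 libraries. The fitted difference was -0.27 ± 0.04 (SE, log2). Its adjusted p in limma was 0.0544, and 0.0457 when only genes with a mean of at least 5 TPM were tested, 0.0261 without in9 replicate 1, 0.0171 with library weights and 0.249 with a replicate block. At that higher minimum it was the 1 member called, against 0.426% of genes called lower.

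Mrpl20, a homolog of a bacterial large subunit protein, was at 175.58, 168.29 and 180.04 TPM in LV2 and 150.63, 132.20 and 134.69 TPM in in9. All in9 values were lower, with in9 replicate 1 nearest to LV2. Its log2 fold change was -0.33 ± 0.06 (SE, adjusted p = 0.0670 in limma, and 0.0139 without in9 replicate 1). Mrpl54, a mitochondria-specific protein, was at 76.68, 76.09 and 84.29 TPM in LV2 and 68.06, 61.31 and 63.68 TPM in in9, again without overlap (-0.29 ± 0.06, adjusted p = 0.0861, and 0.0342 without in9 replicate 1). Mrpl52, the most abundant member per length, was at 367.00, 397.73 and 417.02 TPM in LV2 and 346.18, 317.65 and 319.15 TPM in in9. Its groups were apart as well (-0.26 ± 0.06, adjusted p = 0.09996, and 0.0377 without in9 replicate 1).

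In other large subunit genes in9 replicate 1 was far from the other in9 libraries and within, above or just below the LV2 range. Mrpl33, a small protein with a bacterial homolog, was at 296.32, 291.78 and 297.43 TPM in LV2 and 326.50, 212.39 and 222.46 TPM in in9. The LV2 libraries were close together and the in9 libraries lay on both sides of them, so the adjusted p was 0.428 with all libraries and 0.0075 without in9 replicate 1, where the log2 fold change was -0.44 instead of -0.24. Mrpl21 was at 127.79, 125.86 and 127.73 TPM in LV2 and 123.38, 93.87 and 99.51 TPM in in9, with groups that did not overlap and in9 replicate 1 just below LV2 (-0.28 ± 0.10, adjusted p = 0.205, and 0.0134 without it). Mrpl35 was at 27.00, 24.98 and 29.16 TPM in LV2 and 26.07, 19.81 and 17.87 TPM in in9, with groups that overlapped (-0.35 ± 0.14, adjusted p = 0.243, and 0.0338 without in9 replicate 1). Mrpl13, also among the most abundant, ranged from 248.89 to 267.84 TPM over LV2 and from 232.65 to 270.25 TPM over in9 and differed by less than the spread (-0.06 ± 0.06).

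The ribosomal stalk, where translation factors dock, is formed by Mrpl12 on a base of Mrpl10, and these partners had differences of opposite sign. Mrpl12 was at 158.64, 164.09 and 166.01 TPM in LV2 and 153.87, 135.17 and 134.70 TPM in in9, all lower (-0.21 ± 0.06 SE, adjusted p = 0.152 in limma, 0.0199 without in9 replicate 1). Mrpl10 was at 58.34, 56.52 and 54.11 TPM in LV2 and 62.40, 60.68 and 61.13 TPM in in9, all higher (0.12 ± 0.05, adjusted p = 0.235, and 0.06 after trimmed-mean scaling). The difference between the partners was not tested. Mrpl58, a peptidyl-tRNA hydrolase built into the large subunit, ranged from 40.93 to 48.17 TPM over LV2 and from 36.14 to 38.24 TPM over in9 (-0.22 ± 0.07, adjusted p = 0.173).

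The most positive large subunit value was that of Mrpl19, at 8.53, 9.15 and 10.65 TPM in LV2 and 15.05, 8.0 and 10.85 TPM in in9. It rested on in9 replicate 1, with a log2 fold change of 0.20 ± 0.21 with all libraries and -0.01 without that one. Mrpl45, which ties the ribosome to the inner membrane, ranged from 36.41 to 37.18 TPM over LV2 and from 37.00 to 41.17 TPM over in9 (0.07 ± 0.06). Mrpl38 was at 77.59 to 86.26 and 82.68 to 87.56 TPM, and its difference of 0.06 (log2) became -0.01 under trimmed-mean scaling. For Mrpl23 the table lists 8.02 to 10.14 TPM over LV2 and 8.07 to 9.71 TPM over in9, while the pseudogene Mrpl23-ps1 is listed at 84.62 to 106.16 TPM, so reads may have been divided between these copies and the level of either is uncertain.

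In the small subunit the most negative value was that of Mrps11, a homolog of a bacterial protein of the subunit platform. It was at 62.10, 59.90 and 56.82 TPM in LV2 and 50.91, 41.61 and 43.26 TPM in in9. The groups were apart, with in9 replicate 1 nearest to LV2, and the log2 fold change was -0.39 ± 0.08 (SE, adjusted p = 0.0845 in limma, 0.0163 without in9 replicate 1). Mrps10 was at 70.69, 76.75 and 81.08 TPM in LV2 and 66.44, 57.13 and 61.87 TPM in in9, without overlap (-0.30 ± 0.08, adjusted p = 0.120, and 0.0446 without in9 replicate 1).

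Mammals have a trio of homologs of a single bacterial small subunit protein, Mrps18a, Mrps18b and Mrps18c, which occupy different places in the ribosome. Mrps18a, which lies in the large subunit despite its symbol, was at 65.29, 65.56 and 73.93 TPM in LV2 and 57.34, 51.74 and 52.64 TPM in in9. Mrps18c was at 90.24, 87.00 and 102.46 TPM in LV2 and 79.84, 71.60 and 70.42 TPM in in9. In both the groups were apart (-0.33 ± 0.07 SE, adjusted p = 0.0812, and -0.33 ± 0.08, adjusted p = 0.109, in limma). Without in9 replicate 1 the adjusted p was 0.0341 for Mrps18a and 0.0416 for Mrps18c. Mrps18b was at 90.84, 93.57 and 87.75 TPM in LV2 and 89.18, 83.54 and 83.36 TPM in in9, with groups that overlapped (-0.09 ± 0.05, adjusted p = 0.381). Whether the trio differ from each other was not tested.

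The most abundant small subunit genes had wide in9 spreads. Mrps21 was at 237.34, 226.51 and 209.25 TPM in LV2 and 226.88, 174.89 and 186.55 TPM in in9 (-0.20 ± 0.10, adjusted p = 0.335, and 0.0438 without in9 replicate 1). Mrps17 ranged from 112.26 to 117.34 TPM over LV2 and from 94.52 to 109.24 TPM over in9, without overlap (-0.17 ± 0.06, adjusted p = 0.211, with 0.0468 under library weights and 0.0568 without in9 replicate 1), and Mrps23 at 102.29 to 122.57 and 86.73 to 114.04 TPM, with overlap. Positive values were small. Mrps34 ranged from 57.84 to 66.33 TPM over LV2 and from 61.63 to 67.97 TPM over in9 (0.07 ± 0.07), and Mrps12, a protein of the decoding centre, at 36.35 to 50.92 and 38.93 to 49.20 TPM (0.06 ± 0.14, and just below 0 after trimmed-mean scaling). Mrps9, with 52.02 to 55.11 TPM over LV2 and 51.35 to 57.30 TPM over in9, differed by 0.00 (log2), or by -0.06 under trimmed-mean scaling.

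Symbols do not always give the place of the protein. Mrps30, a large subunit protein despite its symbol, ranged from 15.19 to 16.33 TPM over LV2 and from 14.58 to 16.56 TPM over in9 (-0.02 ± 0.07, and 0.03 without in9 replicate 1). Mrps36, now known as a subunit of the oxoglutarate dehydrogenase complex, ranged from 59.86 to 66.17 TPM over LV2 and from 61.39 to 69.52 TPM over in9. It differed by 0.04 ± 0.07 (log2, SE), or by -0.02 either under trimmed-mean scaling or without in9 replicate 1.

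**Figure D3:**
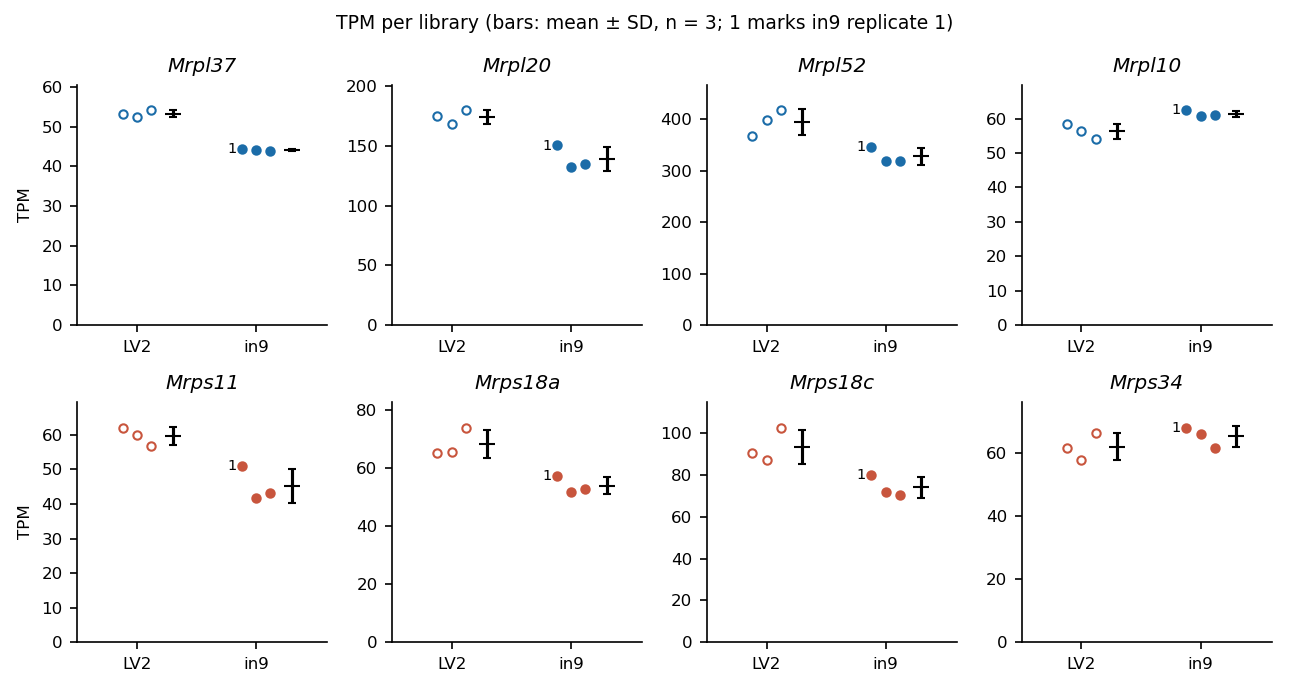
TPM in each library (vertical axis, from 0) for 4 large subunit genes (blue) and 4 small subunit genes (red, by symbol), with LV2 as open and in9 as filled points and the mean ± SD of 3 libraries in black. In Mrpl37, Mrpl20, Mrpl52, Mrps11, Mrps18a and Mrps18c all in9 points lie below all LV2 points, in Mrpl10 all lie above, and in Mrps34 the groups overlap.

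The subunits were compared as groups. The median log2 fold change was -0.08 over the large and -0.12 over the small subunit, a difference of 0.04 that was not tested. With Mrps18a and Mrps30 counted as large and Mrps36 left out, the medians were -0.08 and -0.12. Without in9 replicate 1 the medians by symbol were -0.15 and -0.18, with a difference of 0.03. Leaving out LV2 replicate 2 or in9 replicate 2 gave a difference of 0.01. Set against the LV2 mean, the median log2 difference of LV2 libraries was 0.00 to 0.01 (large) and -0.01 to 0.01 (small). In in9 replicates 1 to 3 it was 0.02, -0.16 and -0.11 (large) and -0.04, -0.19 and -0.12 (small). The summed TPM of the large subunit genes was 4144.3, 4177.0 and 4234.2 in LV2 and 4166.4, 3647.4 and 3693.8 in in9. That of the small subunit genes was 1954.5, 1965.9 and 1967.8 in LV2 and 1908.6, 1697.5 and 1740.7 in in9. Both sums were near LV2 in in9 replicate 1 and below it in the other in9 libraries, and the ratio of large to small spanned 2.12 to 2.15 over LV2 and 2.12 to 2.18 over in9. Together the members made up 0.610% to 0.620% of the summed TPM of LV2 libraries and 0.607%, 0.534% and 0.543% of that of in9 libraries.

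The same order of the in9 libraries was seen in the cytosolic ribosomal protein genes. The messages that mitochondrial ribosomes translate went in a different direction. The 83 cytosolic genes tested had a median log2 fold change of -0.22, and -0.30 without in9 replicate 1, where that of the members was -0.15. Set against the LV2 mean, the median log2 difference per library was -0.01, -0.17 and -0.11 for the members and -0.08, -0.32 and -0.28 for the cytosolic genes in in9 replicates 1 to 3. The 13 messages of the mitochondrial chromosome had a median of 0.20 and made up 5.83% to 5.94% of the summed TPM of LV2 libraries and 6.34%, 7.56% and 7.41% of that of in9 libraries. With the transcripts of that chromosome left out and TPM rescaled, 61 of 78 members were negative with a median of -0.07. The median over all genes tested rose as well, to 0.08 in that fit from 0.06 in the main fit. These differences between groups of genes were not tested.

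**Figure D4:**
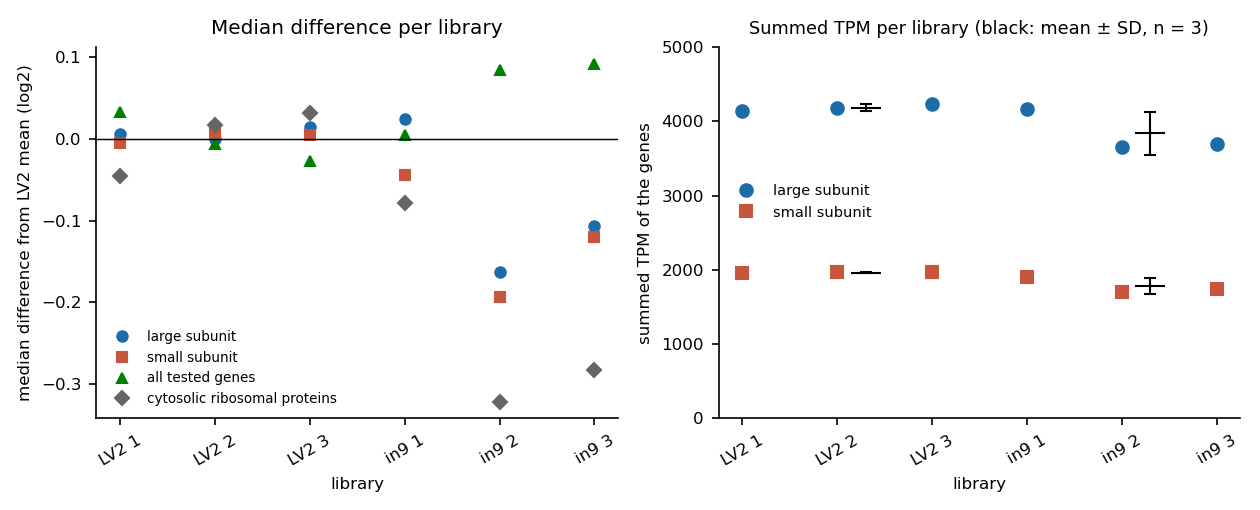
Left, median log2 difference of each library from the LV2 mean for large and small subunit genes, all tested genes and cytosolic ribosomal protein genes. Right, summed TPM of each subunit per library with the mean ± SD of 3 libraries. The in9 replicates 2 and 3 lie below the other 4 libraries for both subunits, at 3647.4 and 3693.8 TPM for the large and 1697.5 and 1740.7 TPM for the small.

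Members had short listed lengths, with a median of 1324 bases against 2513.5 for all tested genes. The listed length is not the span of a gene on the chromosome. Members also had higher levels, with a median of the mean TPM of 60.1 against 18.4. Genes of shorter listed length had lower log2 fold changes in these libraries, and so had genes of higher mean TPM. Across the tested genes Spearman's rho between length and log2 fold change was 0.18, and across members it was 0.17 (n = 78, and genes of one library share its preparation). Between mean TPM and log2 fold change it was -0.19 across the tested genes and -0.23 across members. All tested genes under 1000 bases had a median of -0.02 and those of at least 2000 bases 0.08. Among members the 24 under 1000 bases had a median of -0.11, with 20 negative, and the 26 of at least 2000 bases -0.10, with 21 negative. The subunits differed in this. In the large subunit rho with length was 0.22, and the medians of these length classes were -0.13 and -0.07. In the small subunit rho was 0.06, and the order was the opposite, at -0.10 and -0.15. The part of length or of level in the differences was not tested.

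Many members start head to head with another gene. Of the 78, 33 (42.3%) had a protein-coding gene on the other strand that starts within 1 kb and extends away from it. This held for 17.6% of the 11053 protein-coding genes tested. Pairs that overlap at their starts were counted too. These 33 lie on 15 chromosomes. Mrps11 and Mrpl46 are such a pair on chromosome 7, with starts that overlap and lie 412 bases apart. Both genes encode ribosomal proteins, of opposite subunits. Mrpl46 was at 45.34, 44.76 and 43.73 TPM in LV2 and 49.22, 37.99 and 36.81 TPM in in9, so that in9 replicate 1 was highest and the others lowest (-0.12 ± 0.11, adjusted p = 0.582, and 0.0358 without in9 replicate 1). Mrpl46 was named for its position after its values were seen.

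Of the 28 neighbours outside the mitochondrial ribosome that were tested, 10 (35.7%) had a negative log2 fold change, near the 36.3% of all genes, while 23 of their 28 mitochondrial ribosomal partners did. The median was 0.06 over the neighbours and -0.08 over the partners, and the member had the lower value in 23 of 28 pairs. Mrpl54 (-0.29) starts 26 bases from Apba3 (0.12 ± 0.07), and Mrpl21 (-0.28) 116 bases from Ighmbp2 (0.11 ± 0.09). In other pairs both were negative, as in Mrps18c (-0.33) and the helicase gene Helq (-0.18 ± 0.14), or Mrpl49 (-0.11) and Fau (-0.21 ± 0.07), which encodes a cytosolic ribosomal protein. None of the 28 neighbours was called in limma over all genes.

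**Figure D5:**
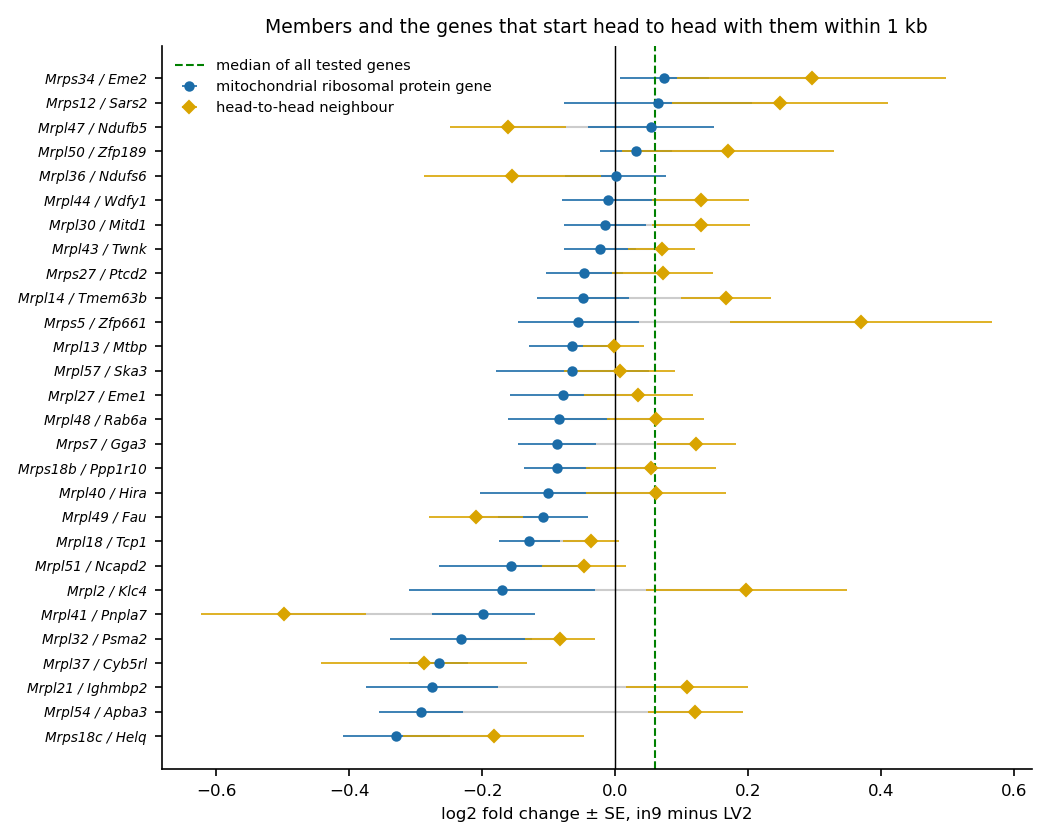
Log2 fold change ± SE (in9 minus LV2, horizontal axis) of 28 mitochondrial ribosomal protein genes (circles) and of the tested gene that starts head to head with each (diamonds), 1 pair per line. Of the circles 23 and of the diamonds 10 lie left of 0.

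Matches to the seed of miR-9, the microRNA named in the series, made up a smaller share among members than among all tested genes. The mature mmu-miR-9-5p is shown with its seed (bases 2 to 8) in capitals, followed by the matches in the annotated 3' ends of 3 members, read from GENCODE M21 transcripts, with the 7 matching bases in capitals.
mmu-miR-9-5p: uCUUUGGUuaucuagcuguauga
Mrpl54: aaataaatACCAAAGggacctac
Mrpl18: ctacagccACCAAAGgaaagcat
Mrpl19: gagtccccACCAAAGaataagat

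A 7-base match (ACCAAAG or CCAAAGA) was present after the coding part in 10 of 78 members (12.8%), 6 large and 4 small, against 22.1% of the 10999 tested genes with such a sequence. The members' sequences were shorter, with a median of 391.5 bases against 1163. The 10 with a match had a median log2 fold change of -0.12 and the others of -0.09, and 3 of the 10 were positive. With and without a match the medians were -0.04 and -0.08 in the large subunit, -0.14 and -0.09 in the small subunit, and 0.08 and 0.06 over all tested genes, so the order was not the same in each. Mrpl54 and Mrpl18 (-0.13 ± 0.05 SE, adjusted p = 0.203 in limma) carried 1 match each, and Mrpl19 carried a match followed by an adenine. A match is a description of letters and no measured site. Mrpl18 and Mrpl49 were named after their values were seen.

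Genes that build, supply or regulate the mitochondrial ribosome were described from lists chosen as background. None of the genes in these 6 lists was called in limma with all libraries. Without in9 replicate 1, limma called 1 of 5 ribosomal proteins with other symbols and 1 of 29 assembly factors lower. It called 1 of 24 DNA and RNA metabolism genes and 2 of 11 regulators higher, and none of the others. Over all tested genes 3.68% were then lower and 6.77% higher. The list counts with all libraries can be read beside the shares over all tested genes, where 36.3% were negative, 5.86% lower and 13.6% higher at an unadjusted p under 0.05. Of 5 ribosomal proteins with other symbols (Dap3, Ptcd3, Aurkaip1, Chchd1 and Gadd45gip1) 4 were negative, with a median of -0.06, and 2 were lower at an unadjusted p under 0.05. Chchd1, a small subunit protein, was at 191.35, 194.38 and 204.90 TPM in LV2 and 188.53, 137.23 and 152.38 TPM in in9, without overlap. Its log2 fold change was -0.32 ± 0.11 (adjusted p = 0.201, and 0.0206 without in9 replicate 1). Aurkaip1, of the same subunit, was at 87.59 to 90.78 and 69.18 to 82.99 TPM (-0.20 ± 0.08), and Ptcd3 at 63.24 to 65.23 and 60.21 to 64.16 TPM.

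Among 29 assembly factors 17 were negative, with a median of -0.02, 2 lower and 2 higher at an unadjusted p under 0.05. The pseudouridine synthase gene Rpusd4 was at 47.28, 51.30 and 45.09 TPM in LV2 and 42.33, 37.76 and 40.01 TPM in in9, without overlap (-0.25 ± 0.07, adjusted p = 0.136, with 0.0339 under library weights and 0.0593 without in9 replicate 1). Spg7, a subunit of the inner membrane protease that matures Mrpl32, ranged from 58.36 to 59.49 TPM over LV2 and from 63.67 to 75.32 TPM over in9 (0.22 ± 0.07, adjusted p = 0.155). The GTPase gene Gtpbp6 was at 20.29 to 23.50 and 25.43 to 31.36 TPM (0.31 ± 0.10, adjusted p = 0.166).

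Of 20 translation factor genes 15 were positive, with a median of 0.03, and 1 had an unadjusted p under 0.05. That gene was Mtif2, an initiation factor, with 14.23 to 17.00 TPM over LV2 and 17.23 to 19.98 TPM over in9 (0.23 ± 0.09). The release factor gene Mtrf1l was at 4.80 to 5.31 and 5.24 to 8.57 TPM and the recycling factor gene Gfm2 at 15.42 to 15.87 and 15.78 to 18.11 TPM. The 20 genes that charge mitochondrial tRNAs had a median of 0.08 with 0 at an unadjusted p under 0.05, and the smallest p belonged to Yars2, at 35.38 to 39.12 and 29.95 to 36.54 TPM. Nars2 was at 10.04 to 13.43 and 12.56 to 14.48 TPM, and Gatb at 9.13 to 12.67 and 5.62 to 10.83 TPM.

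The 24 genes of mitochondrial DNA and RNA metabolism had a median of 0.05, and 15 were positive, 1 of them at an unadjusted p under 0.05. Fastkd3 ranged from 12.48 to 15.91 TPM over LV2 and from 16.47 to 18.26 TPM over in9 (0.28 ± 0.10, adjusted p = 0.201), and the DNA polymerase gene Polg at 53.69 to 63.35 and 46.26 to 51.90 TPM. The ribonuclease gene Pnpt1 was at 41.56 to 47.06 and 44.10 to 55.97 TPM (0.21 ± 0.10, adjusted p = 0.317, and 0.0396 without in9 replicate 1). Among 11 regulators of nuclear genes for mitochondria 8 were positive and 1 was lower at an unadjusted p under 0.05. Their median was 0.08, and 0.21 without in9 replicate 1, where that of all tested genes was 0.06 and 0.09. Gabpa, the DNA-binding subunit of the ETS factor whose core was searched above, was at 29.64, 28.61 and 25.22 TPM in LV2 and 27.90, 38.44 and 39.41 TPM in in9 (0.32 ± 0.14, adjusted p = 0.279, and 0.0316 without in9 replicate 1). Its partner Gabpb1 ranged from 21.81 to 22.85 TPM over LV2 and from 19.33 to 20.65 TPM over in9, lower in all (-0.16 ± 0.06, adjusted p = 0.210), and Myc at 240.99 to 246.13 and 247.73 to 264.01 TPM. Members with the ETS core in the promoter had a median log2 fold change of -0.16 (n = 25) and those without it -0.08 (n = 44), and members with the YY1 motif -0.21 (n = 13) against -0.09 (n = 56). For the NRF1 core the order was the opposite, at -0.09 with it (n = 21) and -0.11 without it (n = 48). The motifs that were near their share in all windows had gaps of similar or larger size, at -0.16 and -0.09 for NF-Y (n = 27 and 42) and -0.27 and -0.09 for the E-box (n = 5 and 64). Over all tested protein-coding genes the medians with and without lay between 0.04 and 0.07 for all 5 motifs. These differences are given as a description and were not tested.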

How the data were processed

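The deposited table gave TPM per gene for the 6 libraries, as processed by the authors, with a mean TPM column per group that equalled the mean of its libraries. The build was mm10, per the submitters' processing notes. Which aligner, quantifier and annotation were used is not given in the sources used here. TPM carries no read counts, so no count model was used.

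The 13406 genes reaching a mean of 1 TPM were fitted as log2(TPM + 1) using limma 3.58.1 (R 4.3.3) and its intensity trend, in9 minus LV2, two-sided, without a replicate block. P-values were adjusted by Benjamini-Hochberg over all genes tested and called under 0.05. This scale understates differences of low genes. Positions came from GENCODE M21 (all 78 members matched) and promoter windows and microRNA sequences from RefSeq (GRCm38.p6). Python 3.11.15 with pandas 2.3.3 was used for tables.

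The members and lists were chosen with earlier results of these data known. Named genes were, per subunit, the 3 of highest mean TPM and up to 4 of largest difference in each direction, members with a noted place in the ribosome, and the 3 of smallest p in each list. Alternatives tried were no filter, a minimum of 5 TPM, a pseudocount of 0.1, trimmed-mean scaling (30% of M, 5% of A), quantile normalization, no mitochondrial transcripts, no trend, library weights, a replicate block and leaving out each library.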

Additional observations from a re-analysis of the deposited data

How the results depend on the processing

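The count of members called lower was 0 with all libraries, 1 at a minimum mean TPM of 5, 15 with library weights, and 0 to 18 when a single library was left out, with 18 only without in9 replicate 1. In the other alternatives 0 members were called, and 0 members were called higher in every alternative run. Unadjusted p under 0.05 in limma was met by 11 to 37 members in the lower direction. At this unadjusted threshold the share over all tested genes was taken only in the main fit (5.86%). The unadjusted counts under the alternatives are therefore given without a background and were not compared with one. For adjusted calls, 3.68% of all tested genes were lower without in9 replicate 1, 3.9% with library weights and 0.426% at the higher minimum. The small subunit median was -0.18 after trimmed-mean scaling, and -0.18 to -0.08 when a single library was left out. Leaving out 1 library gave large subunit medians of -0.15 to -0.06 and large minus small differences of 0.01 to 0.04. The median over members lay between -0.15 and -0.07 in all alternatives. Of 705 log2 fold changes of single genes recomputed under an alternative, 657 kept sign and side of the threshold, 34 passed it and 14 turned sign without being called.

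Replicate numbers did not pair the libraries: same-numbered libraries of the groups correlated at -0.097, 0.022 and -0.046 in their deviations from the group means. With a replicate block 0 members were called and the median stayed at -0.09. In that fit 16 members were lower at an unadjusted p under 0.05, again without a share over all genes. TPM leaves the depth unknown, so the counting error of low members such as Mrpl19 and Mrpl23 cannot be given.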
